A study of Rattus norvegicus with 17 samples.

Results

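The genes described here mark the steps by which new neurons are made in the hippocampus of adolescent rats. They were chosen by symbol, 10 genes in 3 classes: the progenitor genes Sox2, Nes and Eomes, the proliferation genes Mki67 and Top2a, and the immature neuron genes Neurod1, Sox4, Sox11, Igfbpl1 and Dcx. All 10 were found among the 34322 genes of the count table, of which 23963 had at least 1 count in a library. RNA had been sequenced from the hippocampi of 17 Long-Evans rats aged 36 to 38 days. The ET rats (5; 3 males and 2 females) were born to a dam on a liquid diet that supplied 36% of calories as ethanol. The PF rats (6; 3 males and 3 females) were born to a pair-fed dam on a comparable liquid diet without ethanol, and the AD rats (6; 3 males and 3 females) to a dam given chow ad libitum. The liquid diets were given on gestational days 0 to 20 only, so exposure to ethanol was prenatal. All dams had chow from then on. Each diet was represented by 1 litter, so diet and litter cannot be told apart, and p-values measure the spread between littermates. The left hippocampus was used except in 4 rats.

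In the adult and adolescent rodent brain, new granule neurons are born in the subgranular zone of the dentate gyrus. Radial glia-like stem cells there carry Sox2 and Nes, and they give rise to dividing intermediate progenitors marked by Eomes. Dividing cells make Ki-67 and topoisomerase II alpha, and their daughters pass through a neuroblast stage with Neurod1, Sox4, Sox11, Igfbpl1 and Dcx before they mature into granule neurons with Prox1 and Calb1. The birth of these neurons is abundant in young rats and declines with age. Several of the genes are not restricted to this lineage: Sox2 is made by astrocytes, Nes by blood vessel cells, and Sox4 by several glial and neuronal types.

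Between 10853947 and 17498392 fragments were counted per library. The 3 libraries that the study removed from its final analysis (ET replicate 2, PF animal 11f6 and AD replicate 4) held 128483, 139222 and 150974 normalized counts over 10 choroid plexus genes, against 2854 to 23189 in the other 14. Comparisons of diets rest on those 14 libraries (4 ET, 5 PF and 5 AD), and values of the 3 others are given beside them. AD replicate 6 held 15690 normalized counts over 10 genes of the pineal gland, against 91.5 to 234 in the other libraries of the 14. Sex-linked genes went against the label in 2 AD libraries, so the sexes were compared in ET and PF rats. Prox1, the defining transcription factor of granule neurons, was found in every library, at 110.3 to 679 normalized counts, which are counts scaled by TMM to the mean effective library size.

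No member passed the test in any comparison of diets. At the study's threshold in edgeR's quasi-likelihood test (an adjusted p under 0.01 and a log2 fold change beyond 1.5 either way), 0 of 10 members were called between ET and PF (background 2.17% of all genes tested), 0 of 10 between ET and AD (0.0127%) and 0 of 9 between PF and AD (2.05%). Eomes had too few counts to be tested between PF and AD. At an adjusted p below 0.05 the counts were again 0, where the background was 4.13%, 0.0127% and 5.17%. At an unadjusted p below 0.05 the same test gave 2 members between ET and PF (Sox2 and Top2a; 11.9% of all genes), 0 between ET and AD (2.74%) and 2 between PF and AD (Sox2 and Dcx; 16.4%). With 1 library left out these counts ran from 1 (without ET replicate 3, PF replicate 6 or PF animal 11f5) to 3 (without ET replicate 1) between ET and PF, and were 1 between ET and AD without ET replicate 1 or 5. Between PF and AD they ran from 0 (without PF replicate 3 or AD replicate 1) through 1 (without PF replicate 1 or 6, PF animal 11f5 or AD replicate 5) to 3 (without AD replicate 6). Of all genes, 9.58% to 14.4% reached that level in these fits between ET and PF, and 13.9% to 20.3% between PF and AD. Between ET and AD it was 4.94% without ET replicate 1 and 3.25% without ET replicate 5. DESeq2 also called 0 members in each comparison, with 2, 0 and 2 at an unadjusted p below 0.05 (7.99%, 1.42% and 10.8% of all genes). Bulk RNA cannot tell fewer cells of a type from less RNA per cell, and this holds for every value below.

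**Figure D1:**
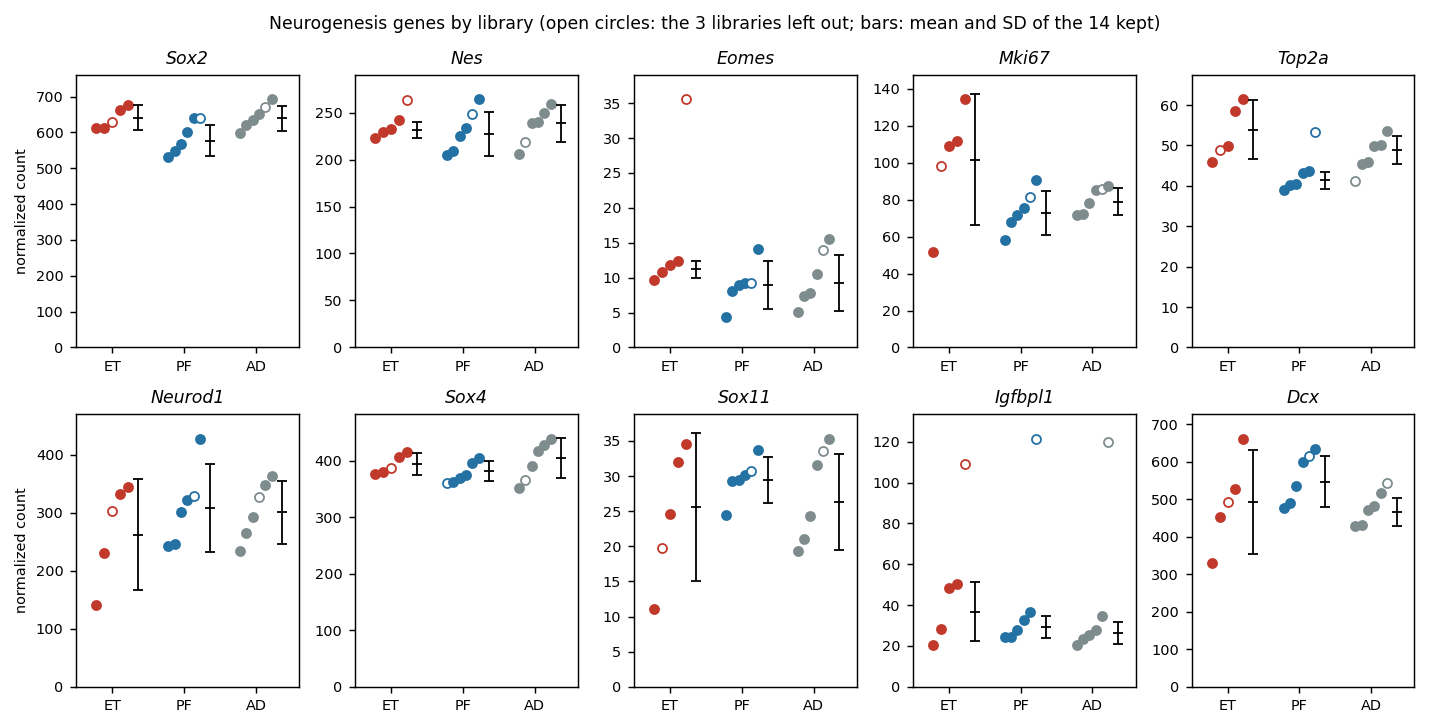
Normalized counts (vertical axes, linear from 0) of the 10 genes in each library of the ET, PF and AD groups. Filled circles are the 14 libraries compared, open circles the 3 left out, and bars the mean and SD of the filled circles. Igfbpl1 stands at 109 to 122 in the open circles and at 20.6 to 50.1 in the filled ones, and the lowest ET circle of Mki67, Neurod1, Sox11 and Dcx is ET replicate 1.

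Of the progenitor genes, Sox2 encodes a transcription factor that keeps neural stem cells undifferentiated. Its normalized counts were 612, 678, 611 and 664 in ET replicates 1, 3, 4 and 5. In PF they were 639, 602, 547 and 567 in replicates 1, 2, 3 and 6 and 531 in animal 11f5. In AD they were 692, 634, 620.4, 652 and 599 in replicates 1, 2, 3, 5 and 6. Of the 5 PF libraries, 4 lay below every ET library, and PF replicate 1 lay in the ET range. So did the left-out PF animal 11f6 at 639.8, while ET replicate 2 had 628 and AD replicate 4 had 669.9. ET over PF gave a log2 fold change of 0.15 (SE 0.068, 95% interval 0.003 to 0.31), with an adjusted p of 0.403 from edgeR. Between PF and AD it was -0.15 (SE 0.060, 95% interval -0.28 to -0.016, adjusted p = 0.241 from edgeR), and between ET and AD 0.0036 (SE 0.059, adjusted p = 1.00). In the gene list of GRCr8, a later rat assembly than the authors', Sox2 overlaps the long noncoding RNA gene LOC103691527, which had 1167 to 1857 normalized counts in ET, 966 to 1227 in PF and 1168 to 1453 in AD, so PF was low in both genes. Whether reads of one were counted for the other was not tested. No other member overlaps a listed gene.

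Nes encodes nestin, an intermediate filament of neural stem cells that is also made by vessel cells. It had 222 to 242 normalized counts in ET, 204 to 264 in PF and 206 to 259 in AD, and 264, 248 and 219 in the left-out ET replicate 2, PF animal 11f6 and AD replicate 4. Its groups overlapped in each comparison, and the log2 fold changes were 0.03 for ET over PF (SE 0.083), -0.04 for ET over AD (SE 0.074) and -0.07 for PF over AD (SE 0.084). The 95% intervals together ran from -0.25 to 0.22 on the log2 scale.

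Eomes, the T-box factor of intermediate progenitors, was near the limit of detection. It had 9.70 to 12.4 normalized counts in ET, 4.35 to 14.1 in PF and 5.11 to 15.5 in AD, where 3 counts were taken as the floor of a library. The ET libraries lay within the PF range and within the AD range. The log2 fold change of ET over PF was 0.29 (SE 0.28, 95% interval -0.33 to 0.92), and that of ET over AD was 0.31 (SE 0.29, 95% interval -0.34 to 0.96). The estimate of ET over PF ran from 0.12 without PF replicate 1 to 0.49 without PF animal 11f5, and was 0.75 with the left-out libraries added (adjusted p = 0.415 from edgeR). With the replicate number as a block it was 0.88, an estimate that rests on the 2 numbers shared by ET and PF. Outside the 14 libraries, ET replicate 2 held 35.5 normalized counts, the highest value of Eomes in any library, PF animal 11f6 held 9.29 and AD replicate 4 held 13.96.

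The proliferation genes Mki67 and Top2a had the highest estimates of ET over PF of the 10 members in the 14 libraries, while with all 17 that of Eomes was higher than both. Both are transcribed before mitosis, and promoters of such genes often carry CCAAT boxes and the cell cycle gene homology region, whose core is TTTGAA. Their 250 bases upstream of the start, from the RefSeq annotation of GRCr8, are shown here for that reason, with CCAAT or ATTGG and TTTGAA or TTCAAA (the same letters on either strand) in capitals. The region of Mki67 is chr1:199952594-199952843 on the minus strand, and that of Top2a is chr10:84473094-84473343 on the minus strand.
Mki67: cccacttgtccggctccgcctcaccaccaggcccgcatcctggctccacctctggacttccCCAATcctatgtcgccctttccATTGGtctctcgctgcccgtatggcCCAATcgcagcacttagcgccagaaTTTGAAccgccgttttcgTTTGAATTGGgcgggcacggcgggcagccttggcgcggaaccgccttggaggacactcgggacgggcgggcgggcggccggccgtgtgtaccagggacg
Top2a: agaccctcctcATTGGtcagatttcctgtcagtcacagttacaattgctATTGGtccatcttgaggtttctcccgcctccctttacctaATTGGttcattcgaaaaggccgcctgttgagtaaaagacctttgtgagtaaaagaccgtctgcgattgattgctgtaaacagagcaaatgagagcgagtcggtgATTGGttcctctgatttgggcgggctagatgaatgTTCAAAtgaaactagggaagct
The Mki67 region held 4 matches of CCAAT and 2 of TTTGAA, of which 1 overlaps an ATTGG. The Top2a region held 4 matches of CCAAT and 1 of TTTGAA. Of 33469 rat promoters of this length in the same table, 34.0% held CCAAT, 16.2% TTTGAA and 5.87% both. Of the 9 members with a promoter there, Sox2 and Sox11 also held both motifs, with 1 match of each. These are matches of letters, and no binding was measured.

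Mki67 encodes Ki-67, the protein that coats mitotic chromosomes. Its normalized counts were 51.4, 134, 112 and 109 in ET replicates 1, 3, 4 and 5. In PF they were 75.6, 67.9, 90.8 and 58.2 in replicates 1, 2, 3 and 6 and 71.6 in animal 11f5. In AD they were 78.2, 72.3, 87.3, 85.0 and 71.8 in replicates 1, 2, 3, 5 and 6. Of the 4 ET libraries, 3 lay above every PF and every AD library, while ET replicate 1 was the lowest of all 14. The ET mean was 102 ± 35.3 (SD, n = 4), against 72.8 ± 11.97 in PF (n = 5) and 78.9 ± 7.13 in AD (n = 5). The log2 fold change of ET over PF was 0.49 (SE 0.24, 95% interval -0.038 to 1.01), a 1.40-fold difference with an adjusted p of 0.478 from edgeR. Without ET replicate 1, the log2 fold change was 0.70 with an adjusted p of 0.0189 from edgeR, and without ET replicate 3 it was 0.32 (adjusted p = 0.556). With the replicate number as a block it was 0.058 (adjusted p = 0.99), in a fit without PF animal 11f5. Only 2 replicate numbers occur in both ET and PF, so that estimate rests on 2 pairs of different animals, ET replicate 1 among them. Over all other settings the adjusted p of Mki67 ran from 0.296 to 0.99. The left-out ET replicate 2 had 98.1, above every PF and AD library, and with all 17 libraries the log2 fold change was 0.45 (adjusted p = 0.324). Against AD it was 0.37 (SE 0.22, 95% interval -0.12 to 0.86, adjusted p = 1.00), and between PF and AD -0.12 (SE 0.12, adjusted p = 0.689).

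Top2a encodes the topoisomerase that untangles chromosomes before they separate. Its normalized counts were 49.8, 58.6, 61.4 and 45.9 in ET replicates 1, 3, 4 and 5. In PF they were 43.2, 43.8, 40.5 and 39.0 in replicates 1, 2, 3 and 6 and 40.2 in animal 11f5. In AD they were 45.3, 45.9, 50.0, 49.9 and 53.5 in replicates 1, 2, 3, 5 and 6. The PF libraries were the low group: every ET library and every AD library lay above the highest PF library, and the ET and AD libraries overlapped. Groups without overlap made up 6.79% of all genes tested between ET and PF, 6.6% between PF and AD and 1.19% between ET and AD, where 0 members had them. For ET over PF the log2 fold change came to 0.38 (SE 0.12, 95% interval 0.12 to 0.64), a 1.30-fold difference with an adjusted p of 0.139 from edgeR, which ran from 0.0771 to 0.762 over the other settings. That of PF over AD was -0.24 (SE 0.13, 95% interval -0.52 to 0.041, adjusted p = 0.393), and that of ET over AD 0.14 (SE 0.12, 95% interval -0.12 to 0.40, adjusted p = 1.00). In the left-out libraries Top2a stood at 48.9 in ET replicate 2, 53.3 in PF animal 11f6 and 41.1 in AD replicate 4, so the separation did not hold over all 17.

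**Figure D2:**
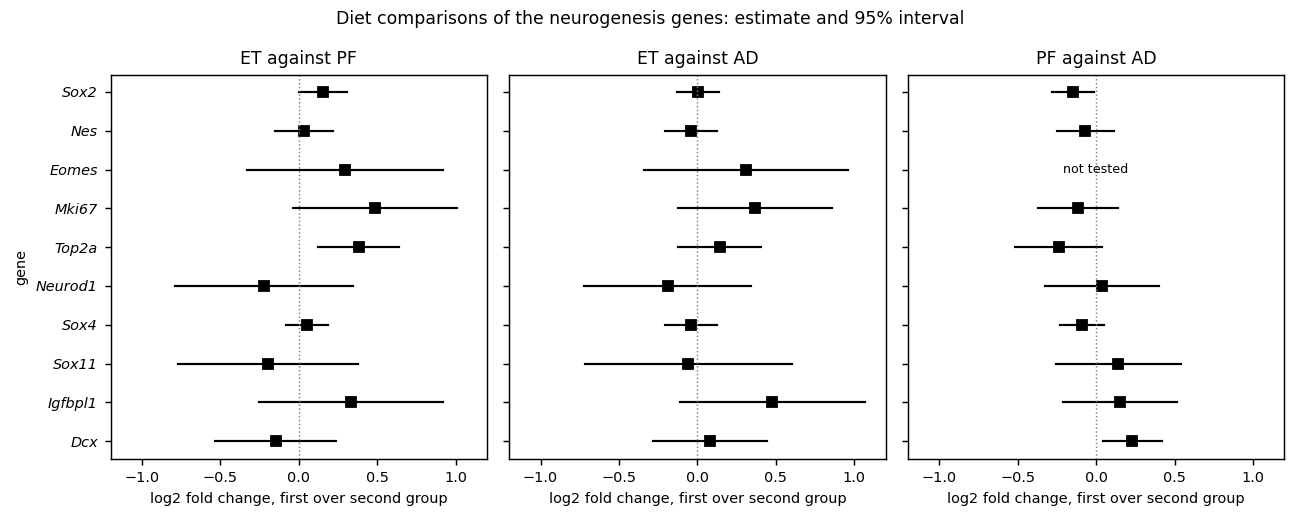
Log2 fold changes (horizontal axes, first over second group) of the 10 genes in the diet comparisons, with squares for the edgeR estimates and lines for their 95% intervals. Intervals for ET against PF are widest for the genes in which ET replicate 1 was low or counts were few, such as Mki67 (-0.038 to 1.01), and narrow for Sox4 (-0.083 to 0.18).

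Of the immature neuron genes, Neurod1 encodes a basic helix-loop-helix factor needed by newborn granule neurons, and it is also made in the pineal gland. Its normalized counts were 141, 333, 345 and 231 in ET replicates 1, 3, 4 and 5. In PF they were 322, 243, 428 and 302 in replicates 1, 2, 3 and 6 and 246 in animal 11f5, and in AD they were 234, 266, 293, 349 and 364 in replicates 1, 2, 3, 5 and 6. ET replicate 1 was the lowest and PF replicate 3 the highest, and the groups overlapped in each comparison. The log2 fold change was -0.22 for ET over PF (SE 0.26, 95% interval -0.79 to 0.34, adjusted p = 0.878 from edgeR), -0.19 for ET over AD (SE 0.24) and 0.04 for PF over AD (SE 0.16). The value of ET over PF was -0.018 without ET replicate 1 and -0.38 without ET replicate 4. The left-out ET replicate 2, PF animal 11f6 and AD replicate 4 had 302, 329.9 and 328. AD replicate 6, the highest AD library in Neurod1, held 12968 normalized counts of Tph1, 359.7 of Asmt and 204 of Crx, genes of the pineal gland, against at most 83.7, 16.6 and 2.67 in the other 13. In the 9 ET and PF libraries of the 14, 6 of the 10 pineal genes, the defining Tph1, Aanat and Crx among them, were at or under the floor throughout. The left-out ET replicate 2 held Tph1 at 34.7. The part of this pineal RNA in the Neurod1 value of that library was not tested.

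Sox4 and Sox11 encode related transcription factors that switch on neuronal genes in newborn neurons. Sox4 was the steadier of the pair, at 376 to 415 normalized counts in ET, 363 to 405 in PF and 351 to 439 in AD. Its log2 fold changes were 0.05 for ET over PF (SE 0.060, 95% interval -0.083 to 0.18), -0.04 for ET over AD (SE 0.073) and -0.09 for PF over AD (SE 0.064). The left-out libraries had 388, 361 and 366 in the same order as for Neurod1. Sox11 had 11.1, 34.6, 32.0 and 24.6 normalized counts in ET replicates 1, 3, 4 and 5, 24.5 to 33.7 in PF and 19.4 to 35.3 in AD. ET replicate 1 was the lowest library and the groups overlapped in each comparison. Its log2 fold changes were -0.20 for ET over PF (SE 0.26, 95% interval -0.77 to 0.38), -0.06 for ET over AD (SE 0.30) and 0.14 for PF over AD (SE 0.18). That of ET over PF was 0.044 without ET replicate 1 and -0.38 without ET replicate 3, and the left-out libraries had 19.8, 30.7 and 33.6.

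Igfbpl1, an insulin-like growth factor binding protein relative seen in young neurons, had 28.2, 50.1, 48.3 and 20.7 normalized counts in ET replicates 1, 3, 4 and 5. In PF it ranged from 24.2 to 36.8 and in AD from 20.6 to 34.7. ET replicates 3 and 4 lay above every PF and AD library, and ET replicates 1 and 5 lay within the PF range or below it. The log2 fold change was 0.33 for ET over PF (SE 0.26, 95% interval -0.25 to 0.92, adjusted p = 0.782 from edgeR), 0.48 for ET over AD (SE 0.27, 95% interval -0.11 to 1.07, adjusted p = 1.00) and 0.15 for PF over AD (SE 0.17, adjusted p = 0.72). The value of ET over PF was 0.14 without ET replicate 3 and 0.53 without ET replicate 5. The values that stood apart were those of the left-out libraries, at 109 in ET replicate 2, 122 in PF animal 11f6 and 120.0 in AD replicate 4. These are also the libraries with the most choroid plexus RNA, in which Ttr, its most abundant marker, stood at 87665 to 112974 normalized counts against 36.1 to 14511 elsewhere, and none of the 10 choroid plexus genes was at or under the floor throughout a group. Foxj1, a gene of ciliated ependymal and choroid cells, stood at 367, 464 and 486 in the same libraries and at 63.4 to 168 in the others. The part of such cells in the Igfbpl1 values was not tested. ET replicate 1 and PF replicate 2, with 13755 and 14511 counts of Ttr, held Igfbpl1 at 28.2 and 36.8, within the range of the other libraries.

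**Figure D3:**
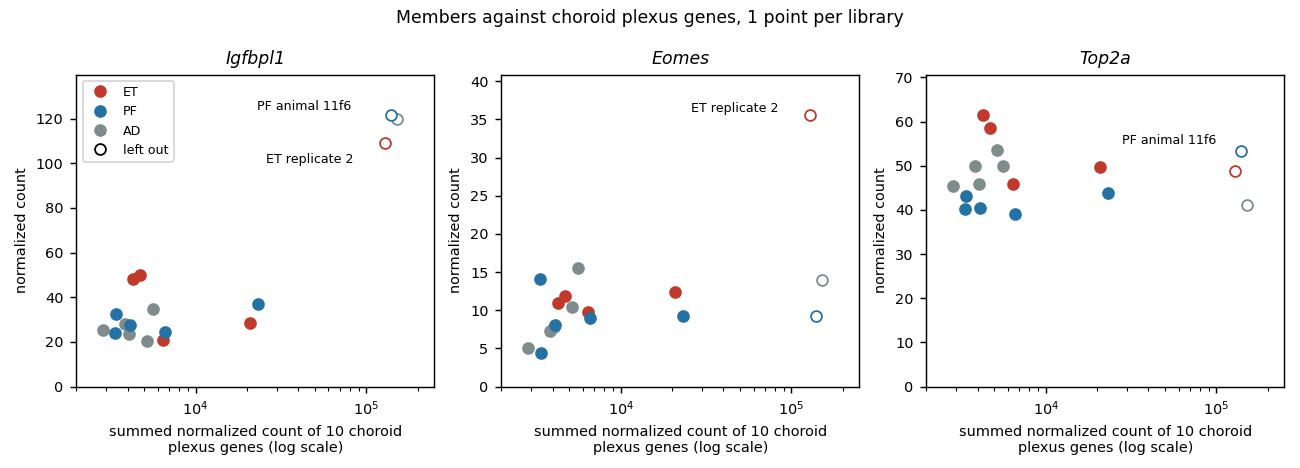
Igfbpl1, Eomes and Top2a (normalized counts, vertical axes from 0) against the summed normalized count of 10 choroid plexus genes (horizontal axes, log scale), with 1 point per library coloured by diet and open points for the 3 libraries left out. Igfbpl1 is high in all open points (109 to 122), Eomes in 1 of them (35.5), and Top2a lies at 41.1 to 53.3 in the open points against 39.0 to 61.4 in the filled ones.

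Dcx encodes doublecortin, the microtubule-associated protein by which young neurons are most often recognised. Its normalized counts were 328, 661, 527 and 451 in ET replicates 1, 3, 4 and 5. In PF they were 599, 477, 632 and 535 in replicates 1, 2, 3 and 6 and 489 in animal 11f5. In AD they were 429, 471, 517, 482 and 432 in replicates 1, 2, 3, 5 and 6. ET held both the lowest and the highest library, and 3 of 5 PF libraries lay above every AD library. The left-out ET replicate 2, PF animal 11f6 and AD replicate 4 had 493.1, 614.7 and 542.3. PF over AD gave a log2 fold change of 0.23 (SE 0.086, 95% interval 0.041 to 0.42), with an adjusted p of 0.194 from edgeR. That of ET over PF was -0.15 (SE 0.17, 95% interval -0.53 to 0.24, adjusted p = 0.884), and that of ET over AD 0.08 (SE 0.16, 95% interval -0.29 to 0.44, adjusted p = 1.00). For ET over PF it was 0.0024 without ET replicate 1 and -0.32 without ET replicate 3. The comparisons of PF with AD and of ET with AD share the AD libraries, and those of ET and of AD with PF share the PF libraries.

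ET replicate 1 was the lowest of the 14 libraries in Mki67, Neurod1, Sox11 and Dcx, and also in 2 of the 4 granule neuron genes read beside them, Prox1 and Dsp. Prox1 stood at 110.3 in it, against 246 to 679 in the others, and the desmosomal gene Dsp at 47.1, against 54.5 to 132. Calb1, the calcium buffer of mature granule neurons, was at 935 in it and lower in AD replicates 2 and 6 (863 and 869), and C1ql2, a synaptic protein gene, was at 261 and lower in PF replicate 2 and animal 11f5 (259 and 247). Summed over the 14 genes of the granule neuron list, it held 4522 normalized counts, against 5169 to 8368. Deviations of genes from their mean over all 17 libraries were correlated with gene length on the chromosome (a description across 14820 genes). ET replicate 1 had the most negative Spearman's rho, at -0.27. It was 0.36 in ET replicate 3, the library with the highest Prox1, Mki67 and Dcx, and -0.17 to 0.19 in the other 12. Across the 14 libraries and centred on diet means, Prox1 correlated with Mki67 at r = 0.87, with Dcx at 0.84, with Neurod1 at 0.73 and with Sox11 at 0.69. Without ET replicate 1 these became 0.51, 0.60, 0.40 and 0.13 over 13 libraries. Correlations with the gene-length rho of the library were 0.73 for Mki67, 0.79 for Sox11, 0.71 for Dcx and 0.42 for Neurod1, and without ET replicate 1 they were 0.61, 0.69, 0.53 and 0.06. For Nes and Igfbpl1 they were -0.51 and 0.47 (-0.58 and 0.40 without it), and for the other members between -0.11 and 0.19. The r with Prox1 was 0.07 for Top2a, 0.39 for Igfbpl1, -0.02 for Sox2, -0.08 for Nes, -0.08 for Eomes and -0.22 for Sox4. With Dsp, Calb1 and C1ql2 it was 0.53, 0.55 and -0.0048 for Top2a, 0.65, 0.78 and 0.33 for Igfbpl1, and -0.64, -0.34 and -0.20 for Sox4. Those of Sox2, Nes and Eomes with these genes lay between -0.26 and 0.27. All are descriptions in which both values of a point come from 1 library. Which share of the spread goes with dissection, RNA quality or the animals was not tested.

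**Figure D4:**
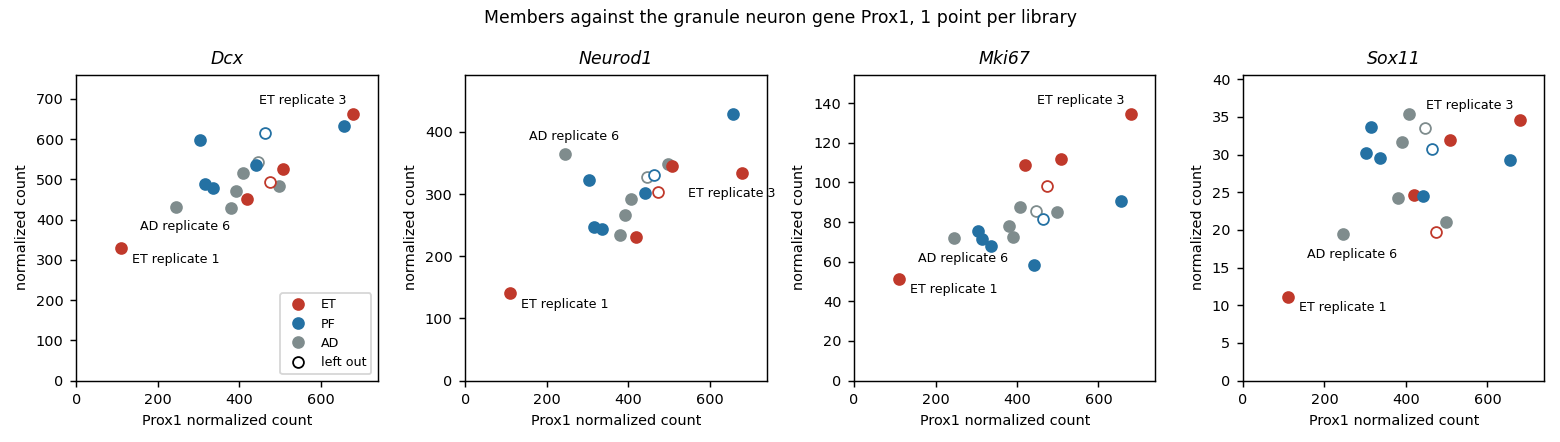
Normalized counts of Dcx, Neurod1, Mki67 and Sox11 (vertical axes from 0) against that of the granule neuron gene Prox1 (horizontal axes) in each library, coloured by diet, with open points for the 3 libraries left out. ET replicate 1 is lowest in all 4 genes and in Prox1 (110.3), and AD replicate 6, the library with pineal RNA, has Neurod1 at 364 with Prox1 at 246.

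Members were also compared with each other between animals of a diet, as log2(CPM + 1) centred on diet means over the 14 libraries, with permutation within diets. Of 45 pairs, 0 passed an adjusted p of 0.05 and 8 had an unadjusted p below 0.05. The 3 with the smallest p were Mki67 with Dcx (Pearson's r = 0.87, permutation p = 0.00274, Spearman's rho = 0.72, permutation p = 0.00761), Neurod1 with Sox4 (r = -0.74, p = 0.0042, rho = -0.80, p = 0.00485) and Neurod1 with Dcx (r = 0.82, p = 0.00495, rho = 0.80, p = 0.0038). Each had an adjusted permutation p of 0.0742 for r and of 0.109 to 0.114 for rho. Without the 2 libraries farthest from the median of the first gene, r was 0.60, -0.77 and 0.71. Without ET replicate 1 alone it was 0.68, -0.79 and 0.65, and the number of pairs at an unadjusted p below 0.05 was 3. Sox11 had r = 0.78 with Mki67, 0.74 with Dcx and 0.44 with Neurod1, and without ET replicate 1 these were 0.37, 0.41 and -0.17. Between the proliferation genes Mki67 and Top2a, r was 0.27. Between Top2a and Igfbpl1 it was 0.73 (permutation p = 0.0296, adjusted 0.19), and 0.21 over all 17 libraries. The progenitor genes Sox2 and Nes had r = -0.12. With all 17 libraries, 4 of the 45 pairs passed an adjusted permutation p of 0.05 for r (3 positive and 1 negative).

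**Figure D5:**
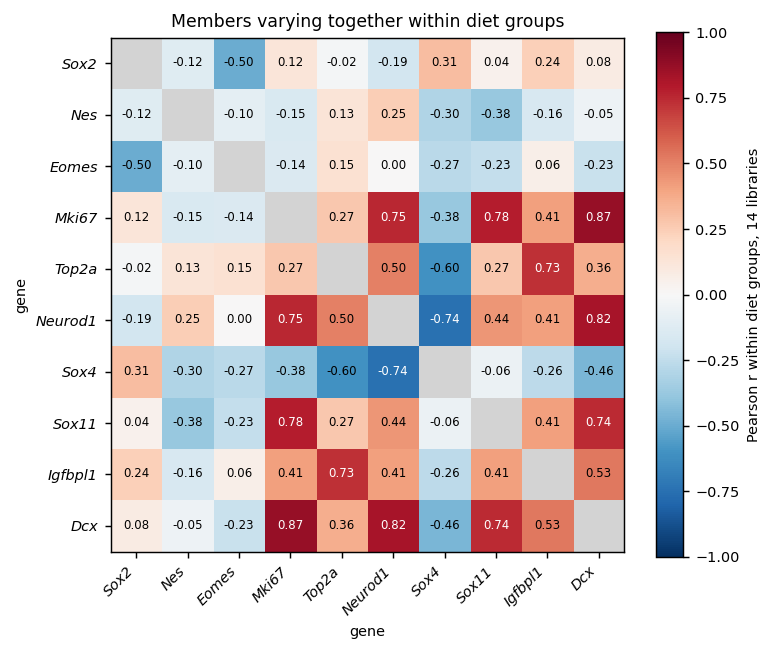
Pearson's r between the members (both axes) over the 14 libraries, centred on diet means, from blue (-1) to red (1). Pairs among Mki67, Neurod1, Sox11 and Dcx are red (0.44 to 0.87), as are Top2a with Igfbpl1 (0.73) and with Neurod1 (0.50) and Igfbpl1 with Dcx (0.53), while Sox4 is negative with Neurod1 (-0.74) and Top2a (-0.60), and 0 of 45 pairs passed an adjusted p of 0.05. Without ET replicate 1 (not drawn), pairs among Mki67, Neurod1, Sox11 and Dcx ran from -0.17 to 0.68.

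By the same measure, the genes most like Dcx over all genes that passed the filter were Ptprz1, Zfp608, Rbms3, Slc4a4, Nkain3, Scn4a, Fam126a, Dusp18, Ccnd2 and Mturn, with r from 0.95 down to 0.93 over 14 libraries. Ccnd2, cyclin D2, is the cyclin on which dividing hippocampal progenitors depend, and it had 241 normalized counts in ET replicate 1 and 426 to 801 in the other 13. The genes most like Top2a were Ash2l, LOC120095990, Spaca9, Pts, NEWGENE_1305243, Fbxl13, Iqca1, Ccdc40, LOC688801 and Mfn2, with r from 0.91 down to 0.82. Of the 10 genes like Dcx, 6 stayed among the 10 with all 17 libraries and 5 without centring on diet means. Of those like Top2a only 1 did in each case (NEWGENE_1305243 and LOC688801), so most of that list is replaced under either setting. These are descriptions with no test.

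Lists of genes for each step of the lineage were examined between ET and PF. They include members (2 in the stem cell list, 2 in cell division, 5 in neuroblasts and 4 in immature neurons), so their counts and medians are not separate from the values above. None of the 20 neural stem cell genes passed an adjusted p of 0.05, against 4.13% of all genes (15 fitted higher in ET and 5 lower, median log2 fold change 0.05, against 0.0053 over all genes). The smallest p was that of Lpar1, a lysophosphatidic acid receptor marking dentate stem cells and also oligodendrocytes, at 0.36 (SE 0.093, adjusted p = 0.0674 from edgeR). With all 17 libraries, 2 stem cell genes passed, Lpar1 (adjusted p = 0.00896 from edgeR) and Gfap (0.0435), both higher in ET, where 5.46% of all genes passed. At an unadjusted p below 0.05 were 6 of the 20 in the 14 libraries, all higher in ET, against 11.9% of all genes. Of 27 cell division genes tested, 0 passed, 24 were fitted higher and 3 lower, with a median of 0.18, and 6 had an unadjusted p below 0.05 (4 higher and 2 lower). Their summed level was 1839 to 2466 normalized counts in ET, 1785 to 2120 in PF and 1835 to 2092 in AD, and Ccnb2 was at or under the floor in every group. Of 18 neuroblast genes and 23 immature neuron genes tested, 0 and 0 passed, with medians of 0.17 and 0.03 and with 1 and 2 at an unadjusted p below 0.05. Their smallest p-values were those of Draxin, a repellent guidance protein (log2 fold change 0.34, SE 0.14, adjusted p = 0.358), and Tubb2b, a tubulin of young neurons (0.46, SE 0.13, adjusted p = 0.0823).

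Among 12 granule neuron genes tested, 1 passed, with a median of 0.08 and 2 at an unadjusted p below 0.05, where 4.13% of all genes passed. This was Rasl10a, a small GTPase gene of the Ras family, which was lower in ET, at 4.16 to 6.79 normalized counts against 58.5 to 79.0 in PF (log2 fold change -3.62, SE 0.17, adjusted p = 2.26e-07). In AD it stood at 4.27 to 7.34, so PF was the group apart (PF over AD 3.53, SE 0.15, adjusted p = 1.19e-08). Rasl10a overlaps Gas2l1 in the gene list of GRCr8, and with the authors' strand setting not given in the sources used here, reads of the pair cannot be told apart; Gas2l1 itself had 579.7 to 786 normalized counts in the 14 libraries. The marker Tdo2 was at or under 3 counts in every library of each group, and Lct in every ET library. Of 28 niche signals and regulators tested, 0 passed, with a median of -0.01, 5 at an unadjusted p below 0.05 and the smallest p for Rbpj, the nuclear effector of Notch (0.16, SE 0.056, adjusted p = 0.235 from edgeR). With all 17 libraries Rbpj passed (adjusted p = 0.0483, with 5.46% of all genes past the threshold) and the list's median was 0.04.

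Between ET and AD, 0 genes of any of these lists passed an adjusted p of 0.05, and the list medians lay between -0.03 and 0.11, against 0.0028 over all genes. Between PF and AD, besides Rasl10a, 1 of 20 stem cell genes passed, against 5.17% of all genes: Prom1, a membrane protein also found on ependymal cells, was higher in PF (0.27, SE 0.062, adjusted p = 0.0232 from edgeR), a call lost in 6 of 17 other settings (adjusted p up to 0.102). It had 419.5 to 505 normalized counts in PF and 369 to 402 in AD. In cell division, neuroblast, immature neuron and niche lists 0 genes passed between PF and AD, and the medians of the lists were -0.08, -0.05, 0.05 and -0.02, against -0.0029 over all genes.

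Markers of other cells of the dissected tissue were read alongside. Between ET and PF, 0 of the tested genes passed an adjusted p of 0.05 for choroid plexus (10 tested), pineal gland (3), thalamus and habenula (6), oligodendrocyte precursors (9), astrocytes (10), endothelial cells and pericytes (10), ependymal cells (9), olfactory neuroblasts and developing interneurons (8) and pyramidal neurons (10). Between PF and AD the oligodendrocyte lineage factors Olig1 (-0.35, SE 0.084, adjusted p = 0.0296) and Olig2 (-0.34, SE 0.088, adjusted p = 0.0451) were lower in PF, among 9 genes of the list of which 6 were fitted lower and 3 higher. The call was lost in 8 of 17 other settings for Olig1 (adjusted p up to 0.095) and in 9 of 17 for Olig2 (up to 0.109). Summed over the 9 precursor genes in the table, PF held 7688 to 9672 normalized counts, against 9384 to 10384 in AD and 9091 to 10449 in ET. Dividing oligodendrocyte precursors also make Mki67 and Top2a, and Sox2 is made by this lineage too. PF was the low group in these markers, in Top2a and in Sox2, and their part in the Top2a and Sox2 values was not tested. Between ET and PF, 8 of 9 ependymal genes were fitted higher in ET (median log2 fold change 0.45, 4 at an unadjusted p below 0.05), 5 of 6 thalamic genes (median 0.39, 2 at that level) and 6 of 9 precursor genes (median 0.18, 5 at that level), where 11.9% of all genes reached it. Their summed levels in ET, PF and AD were 590 to 1021, 565 to 842 and 544 to 909 normalized counts for ependymal genes and 1146 to 2405, 954 to 1265 and 1175 to 1443 for thalamic genes. The part of such cells in the Top2a, Mki67 and cell division values was not tested. The other medians lay between -0.07 and 0.13. The smallest p between ET and PF in the marker lists was that of Tcf7l2 for thalamus (0.64, SE 0.18, adjusted p = 0.0945), Gfap for astrocytes (0.28, SE 0.090, adjusted p = 0.164), Htr3a for interneurons (-0.62, SE 0.20, adjusted p = 0.179, and 0.0493 with all 17 libraries) and Tmem212 for ependymal cells (1.01, SE 0.33, adjusted p = 0.184). For precursors it was Sox10 (0.28, SE 0.10, adjusted p = 0.245), for endothelium Flt1 (-0.13, SE 0.058, adjusted p = 0.419), for pineal gland Chrna3 (-0.62, SE 0.44, adjusted p = 0.722), for choroid plexus Otx2 (0.64, SE 0.54, adjusted p = 0.795) and for pyramidal neurons Bok (0.20, SE 0.20, adjusted p = 0.838).

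The sexes were compared in the 4 ET and 5 PF rats of the 14, with diet as a term. Of 10 members 0 passed the study's threshold in edgeR (background 0.0311% of all genes), 0 passed an adjusted p of 0.05 (0.0436%), and 0 had an unadjusted p below 0.05 (1.87%), which held in DESeq2 as well. Without ET replicate 1, 1 member did, as did 9.09% of all genes, and without ET replicate 4, 1 member and 2.55% of all genes did. The largest estimates of male over female were -0.30 for Igfbpl1 (SE 0.27, 95% interval -0.90 to 0.29) and 0.18 for Eomes (SE 0.30, 95% interval -0.51 to 0.87), both with adjusted p = 1.00 from edgeR. With the left-out ET and PF libraries added, both from males and rich in choroid plexus RNA, that of Igfbpl1 was 0.68. The intervals were narrow for Sox4 (0.0012, SE 0.064) and Sox2 (-0.08, SE 0.069). For the interaction of sex and diet, 0 of 10 members passed an adjusted p of 0.01 (background 0%) and 0 had an unadjusted p below 0.05 (1.36%), with 0 and 0 in DESeq2. Without ET replicate 3, 4 members had an unadjusted p below 0.05, as did 14.5% of all genes. Its standard errors, between 0.14 for Sox4 and 0.57 for Sox11, were larger than those of the diet comparison. The 95% intervals reached past 1 on the log2 scale for Mki67, Neurod1, Sox11, Igfbpl1 and Dcx and past -1 for Eomes (-2.07 to 0.41), Sox11 and Igfbpl1, so differences of that size lay inside the intervals.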

How the data were processed

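RNA-seq of 17 rat hippocampi was analysed. The authors deposited fragment counts per gene averaged over 3 technical replicates of a sample, which need not be whole (53.3% were, within 1e-06) and were treated here like expected counts, though no model estimated them, after alignment to mRatBN7.2 with Bowtie2 2.4.2 and counting with featureCounts 2.0.1, with a minimum mapping quality of 10 and reads allowed to count for several genes. The count columns carry animal names, which were tied to the labelled samples through the headers of the study's own supplementary copy of the table. PF animals 11f5 and 11f6 could not be told apart by replicate number and are named by animal. The strand setting and annotation release are not given in the sources used here. Counts were rounded and tested for all genes by edgeR 4.0.16 (R 4.3.3; quasi-likelihood, TMM, filterByExpr, Benjamini-Hochberg adjustment) in the 14 samples the study kept, 1 fit per pair of diets. Standard errors and 95% intervals were scaled to match edgeR's p. The members and lists were chosen with earlier results of these data known. Named are all members, genes of other lists past an adjusted p of 0.05 (at most 5 per list and comparison), the gene with the smallest p per list between ET and PF, the 10 genes most like Dcx and Top2a, and markers whose level moved with a member. Correlations used log2(CPM + 1) centred on diet means and 100000 permutations within diets. Python 3.11.15, numpy 2.4.6, pandas 2.3.3, scipy 1.17.1 and matplotlib 3.10.9 were used.

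Total fragments per library had a median of 13538433, 3 counts were taken as the floor, and floors and intervals from counts cover counting error only. The closest of 40 pairs of replicates of a diet differed by a chi-square of 8.64 per gene, so none was counted as 1 sample. Simulated counts for 16068 genes (ET against PF) returned 200 of 200 changed genes with 0 false calls. The changed genes had a log2 fold of 3 either way and a mean above 1 CPM. Folds as small as those of the members were not simulated, so the simulation cannot tell how often such folds are called. Alternatives were DESeq2 1.42.0, median-of-ratios scaling, no filter, sums in place of means of technical replicates, all 17 samples (in each comparison, those of its groups), 1 fit of the 3 diets, a replicate block, sex as a term, a fold above 1.5 in the call rule, and leaving out each sample. Gene overlaps and promoters came from RefSeq for GRCr8, whose list matched 27228 of 34322 symbols (79.3%), and 9 of 10 members had a promoter there (not Sox4). No coordinates were converted between builds. One gene of the marker lists, and the list that holds it, are not reported here.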

Additional observations from a re-analysis of the deposited data

Results flagged for a closer look

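Of 60 groups of libraries examined (each member in each diet, with and without the 3 left-out libraries), 4 held a library whose gap to the nearest other library exceeded Dixon's 95% limit, and chance gives this in about 1 in 20 groups. Eomes stood at 35.54 normalized counts in ET replicate 2, against 9.70 to 12.4 in the other ET libraries. Top2a stood at 53.25 in PF animal 11f6, against 39.0 to 43.8 in the other PF libraries. Igfbpl1 stood at 121.5 in PF animal 11f6, against 24.2 to 36.8, and at 120.0 in AD replicate 4, against 20.6 to 34.7. All 4 values come from the libraries with the most choroid plexus RNA, whose part in them was not tested.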

How the results depend on the processing

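Of 273 member folds under other settings, 259 kept their direction, as did 400 of 450 with 1 library left out. Calls over all genes changed as follows. ET over PF gave 6 higher (10 with sums, 17 with a fold above 1.5, 3 with the replicate block, 3 with sex as a term, 2 to 6 with 1 library left out) and 343 lower (194 with the block). PF over AD gave 323 higher (485 with no filter) and 4 lower (8 with DESeq2, 8 with no filter, 8 with sums, 18 with a fold above 1.5). ET over AD gave 0 higher (0 to 1 with 1 library left out) and 2 lower (0 with the block). Male over female gave 4 higher (0 to 4 with 1 left out) and 1 lower (2 with DESeq2, 1 to 2 with 1 left out), and the interaction 0 higher (0 to 1). Members past an adjusted p of 0.05 between ET and PF were 0 to 1 with 1 library left out, the 1 being Mki67 without ET replicate 1. With all 17 libraries, 4 pairs of members passed (3 positive), and 7 of the 20 most-like genes were shared, against 6 without centring. The causes were not tested.

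Directions turned in these cases. With the replicate block, Nes was -0.018 for ET over PF, and Sox2 -0.0078 and Dcx -0.034 for ET over AD. With all 17 libraries, ET over AD was -0.013 for Sox2 and 0.018 for Nes, and male over female 0.00048 for Mki67, 0.023 for Neurod1, -0.022 for Sox4 and 0.68 for Igfbpl1. The interaction was then 0.014 for Nes, 0.039 for Eomes, -0.11 for Top2a, 0.011 for Sox4 and -0.24 for Igfbpl1. With 1 library left out, ET over PF ran from -0.0047 to 0.092 for Nes, -0.38 to 0.044 for Sox11 and -0.32 to 0.0024 for Dcx. ET over AD ran from -0.024 to 0.031 for Sox2, -0.35 to 0.017 for Neurod1, -0.25 to 0.18 for Sox11 and -0.098 to 0.23 for Dcx, and PF over AD from -0.11 to 0.11 for Neurod1. Male over female ran from -0.021 to 0.14 for Nes, -0.062 to 0.29 for Eomes, -0.27 to 0.20 for Mki67, -0.17 to 0.0033 for Top2a, -0.25 to 0.14 for Neurod1, -0.026 to 0.025 for Sox4, -0.13 to 0.34 for Sox11 and -0.26 to 0.083 for Dcx. The interaction ran from -0.18 to 0.19 for Nes, -0.019 to 1.35 for Mki67, -0.14 to 0.30 for Top2a, -0.071 to 0.064 for Sox4, -0.28 to 1.34 for Sox11, -0.56 to 0.68 for Igfbpl1 and -0.28 to 0.71 for Dcx.

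Replicate numbers name different animals and did not pair the samples (mean correlation of deviations 0.31 over 2 pairs of ET and PF, -0.056 over 3 of ET and AD and 0.0058 over 4 of PF and AD), and with the replicate block Mki67 in ET over PF was 0.058. Estimates with the block rest on those pairs only. Of the list genes, Rasl10a passed in 17 of 17 settings in both comparisons. The block, the fit of all 17 libraries and the fit without PF animal 11f5 also put Eomes above Mki67 and Top2a in ET over PF. Without ET replicate 5, Igfbpl1 (0.531) stood above Mki67 (0.456) and Top2a (0.455). Whether depth or the spread between animals sets the errors of members with few counts was not tested.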
